A study of Mus musculus with 6 samples.

Results

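BAT of mice fed a high-fat diet (HFD) or a low-fat diet (LFD) was examined for the genes that encode collagen chains. A gene was included when its symbol in the deposited tables had the form Col, a number, a and a number, which gave 44 of 47729 genes. They were grouped as 11 fibrillar, 6 basement membrane and 27 other collagens. The mice were wild-type C57BL/6J males, aged 6 weeks at the start, which ate a diet with 45% of calories from fat (HFD) or a low-fat laboratory diet (LFD) for 4 weeks. The right interscapular BAT pad of 3 mice per diet, chosen by the study to span the fat mass of the group from least to greatest, was taken at 10 weeks of age. All mice were housed singly, and the LFD was a laboratory chow while the HFD was a formulated diet, so the diets differ in more than fat. Ribosomal RNA was depleted and total RNA was sequenced in single-end reads of 75 bases. Each library is 1 mouse, so the p-values measure the spread between mice.

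Collagens are secreted proteins of 3 chains wound into a triple helix. Fibrillar collagens (types I, II, III, V, XI, XXIV and XXVII) form the banded fibrils of connective tissue and are made mainly by fibroblasts. Type IV collagen builds the sheet-like basement membrane that surrounds each adipocyte and each capillary. Type VI collagen forms beaded filaments close to adipocytes and is abundant in adipose tissue. The FACITs bind to the surface of fibrils, and the multiplexins are proteoglycans of the basement membrane zone. Adipose tissue matrix is known to be remodelled when fat depots expand.

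The promoter region of a gene is the stretch just before its start, where the transcription machinery assembles. Stretches that lie before a RefSeq start (GRCm38.p6) are shown for 4 genes. Those of *Col1a2* and *Col27a1* lie inside the genes as annotated by GENCODE, which start at 4504814 and 63214004. *Col3a1* and *Col1a2* were among the 3 most abundant collagens, and *Col11a2* and *Col27a1* had the smallest p-values for diet. Capitals mark 3 motifs, which were searched on both strands and do not overlap here. They are the TATA box, spelled TATAAA, the CCAAT box, which carries its sequence as its name, and the GC box, spelled GGGCGG. All printed bases lie outside annotated exons, and for *Col1a2* only the part that does is given, which stops short of the RefSeq start. They are chr1:45311288-45311537 (*Col3a1*), chr6:4505370-4505492 (*Col1a2*), chr17:34038888-34039137 (*Col11a2*) and chr4:63215162-63215411 (*Col27a1*), each on the plus strand and read 5′ to 3′.
Col3a1: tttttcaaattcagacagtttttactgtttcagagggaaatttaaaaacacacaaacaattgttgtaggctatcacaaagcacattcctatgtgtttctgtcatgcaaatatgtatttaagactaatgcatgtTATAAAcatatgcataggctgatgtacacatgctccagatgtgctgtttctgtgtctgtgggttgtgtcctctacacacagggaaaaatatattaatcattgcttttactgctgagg
Col1a2: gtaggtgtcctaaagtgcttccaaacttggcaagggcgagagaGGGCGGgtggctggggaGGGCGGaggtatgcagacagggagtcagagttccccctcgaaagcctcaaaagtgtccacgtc
Col11a2: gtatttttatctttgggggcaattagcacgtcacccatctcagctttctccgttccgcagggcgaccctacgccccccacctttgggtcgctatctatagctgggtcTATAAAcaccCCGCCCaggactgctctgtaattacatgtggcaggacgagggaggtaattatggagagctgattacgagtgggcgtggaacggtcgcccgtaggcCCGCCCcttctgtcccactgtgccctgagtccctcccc
Col27a1: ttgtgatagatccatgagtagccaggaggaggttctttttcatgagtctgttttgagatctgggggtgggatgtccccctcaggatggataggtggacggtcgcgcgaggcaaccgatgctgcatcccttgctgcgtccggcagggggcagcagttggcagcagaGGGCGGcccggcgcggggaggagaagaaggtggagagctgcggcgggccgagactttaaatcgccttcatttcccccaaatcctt
The *Col3a1* stretch held a TATAAA and none of the other motifs, and 0 CG dinucleotides. Counted from the RefSeq start, this TATAAA began at -117 and that of *Col11a2* at -143, and the *Col1a2* GGGCGG matches at -205 and -188. Whether any match acts as the motif it spells was not tested. The *Col11a2* and *Col27a1* stretches held 14 and 15 CG dinucleotides, and GGGCGG stood in both. Of 38 collagen windows of 300 bases (35 genes matched by symbol), 22 (57.9%) held GGGCGG in the 250 bases before the start, against 32.7% of 32851 windows of all genes. TATAAA was in 5 of the 38 (13.2%, against 12.4% of all windows) and CCAAT in 13 (34.2%, against 33.8%).

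The type IV genes lie in head-to-head pairs that are read in opposite directions from a shared start region. The genes *Col4a4* and *Col4a3*, which had the same highest and the same lowest mouse, are separated by only 71 bases on chromosome 1 (GRCm38, chr1:82586850-82586920), and these are printed whole on the plus strand. *Col4a1* and *Col4a2* overlap by 22 bases within their exons on chromosome 8 (chr8:11312805-11312826), also printed on the plus strand.
Col4a4 to Col4a3: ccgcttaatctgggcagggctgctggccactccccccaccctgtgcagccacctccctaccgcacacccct
Col4a1 and Col4a2 overlap: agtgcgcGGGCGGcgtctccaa
The 71 bases held none of the 3 motifs, whereas the shared 22 bases held a GGGCGG. *Col4a6* and *Col4a5*, the third such pair, are 1308 bases apart on chromosome X. The counting is not stated to use strand, so a read across the 22 shared bases could not be assigned to *Col4a1* or *Col4a2* by its direction.

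The libraries held 17156991 to 21603487 rounded counts, of which collagens took 2.03%, 2.16% and 1.88% in the HFD-fed mice 1, 2 and 3 (the replicate numbers of the labels). The shares were 0.708%, 2.74% and 9.0% for LFD-fed mice 1, 2 and 3, so that the lowest and the highest share were both in LFD-fed mice. LFD replicate 3 and LFD replicate 1 therefore stand apart from the other libraries for collagens, and the results that rest on them are also given without them. The labelled tissue was checked with 14 brown adipocyte markers, which were all detected, with a summed level of 3567 to 12693 TPM (a level per length of transcript, scaled to the same total in every library). Much of this sum was the general adipocyte gene *Fabp4*, whereas *Ucp1*, the defining heat-producing protein of brown fat, was at 796 to 4021 TPM in HFD-fed and only 11.0 to 443 TPM in LFD-fed mice. Transcripts encoded in mitochondria took 22.7%, 16.5% and 8.5% of counts in HFD-fed mice 1, 2 and 3, and 13.8%, 9.12% and 3.87% in LFD-fed mice 1, 2 and 3. That share was lowest in LFD replicate 3, the library with the most collagen, and its part in the collagen levels was not tested. Skeletal muscle markers summed to 26.0 to 403 TPM in HFD-fed and 2245 to 15649 TPM in LFD-fed mice. In bulk tissue, fewer cells of a type and less RNA per cell cannot be told apart.

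No collagen gene passed the thresholds between the diets, an adjusted p under 0.01 together with a log2 fold change beyond 1.5 in either direction. In this edgeR quasi-likelihood test, 0% of the 17668 genes tested passed. DESeq2 called 0 collagens as well, against 2.03% of its genes. Of the 44 members, 38 had enough counts to be tested. The remaining 6, *Col2a1*, *Col4a6*, *Col6a4*, *Col9a1*, *Col9a2* and *Col19a1*, had at most 18 counts in any mouse. Among the 38, 28 had a negative log2 fold change (HFD over LFD) and 10 a positive one, where 54.4% and 45.6% of all genes did. At an unadjusted p under 0.05, 0 collagens were lower in HFD-fed mice (6.62% of all genes) and 2 were higher (3.86%), namely *Col11a2* and *Col27a1*. Log2 CPM is a count scaled to library size and, for each library, by a TMM factor that edgeR estimates. In log2 CPM the diets overlapped for 36 of the 38. The 3 HFD-fed mice lay above the 3 LFD-fed mice for 2 collagens (6.72% of all genes) and below them for 0 (9.23%). The median log2 fold change was -0.38 over the 38 collagens and -0.05 over all genes tested. By class it was -0.83 in the 10 fibrillar, -0.35 in the 5 basement membrane and -0.16 in the 23 other collagens tested.

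**Figure D1:**
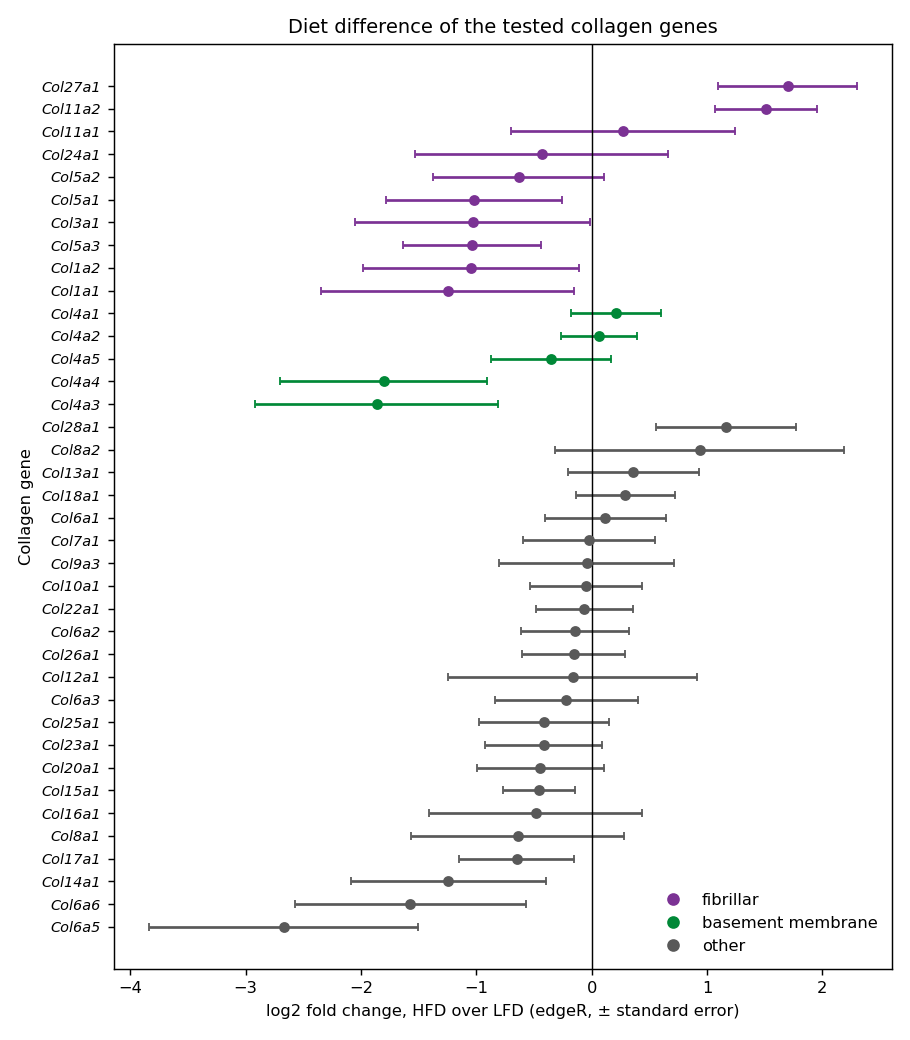
Log2 fold change of each tested collagen gene (x axis, HFD over LFD, edgeR), with genes on the y axis grouped by class. Points are estimates and bars are ± a standard error derived from the edgeR test statistic. Estimates run from -2.67 (*Col6a5*) to 1.70 (*Col27a1*), and 28 of the 38 lie left of 0.

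*Col3a1*, the chain of type III collagen, was the most abundant collagen of this BAT. In the order of replicates 1, 2 and 3, its level was 2610, 3352 and 1919 TPM in HFD-fed and 874, 6085 and 18377 TPM in LFD-fed mice. The HFD-fed mice lay close together and inside the range of the LFD-fed mice, which held both the lowest and the highest value. Means were 2627 ± 717 TPM in HFD-fed and 8445 ± 8987 TPM in LFD-fed mice (SD, n = 3). The log2 fold change was -1.03 ± 1.02 (SE), with an adjusted p of 0.821 by edgeR.

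The chains of type I collagen, the main load-bearing fibril, followed the same order of mice. *Col1a1* was measured at 832, 842 and 540 TPM in HFD-fed and 182, 1166 and 5842 TPM in LFD-fed mice. *Col1a2* stood at 736, 817 and 578 TPM in HFD-fed and 216, 1349 and 4835 TPM in LFD-fed mice. For both, LFD replicate 1 was the lowest mouse, LFD replicate 3 the highest, and the diets overlapped. The highest LFD-fed mouse exceeded the lowest by 32.0-fold for *Col1a1* and 22.4-fold for *Col1a2*, compared with 1.56-fold and 1.41-fold among HFD-fed mice. Their log2 fold changes were -1.25 ± 1.10 and -1.04 ± 0.94 (SE), with adjusted p-values of 0.790 and 0.795 by edgeR.

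**Figure D2:**
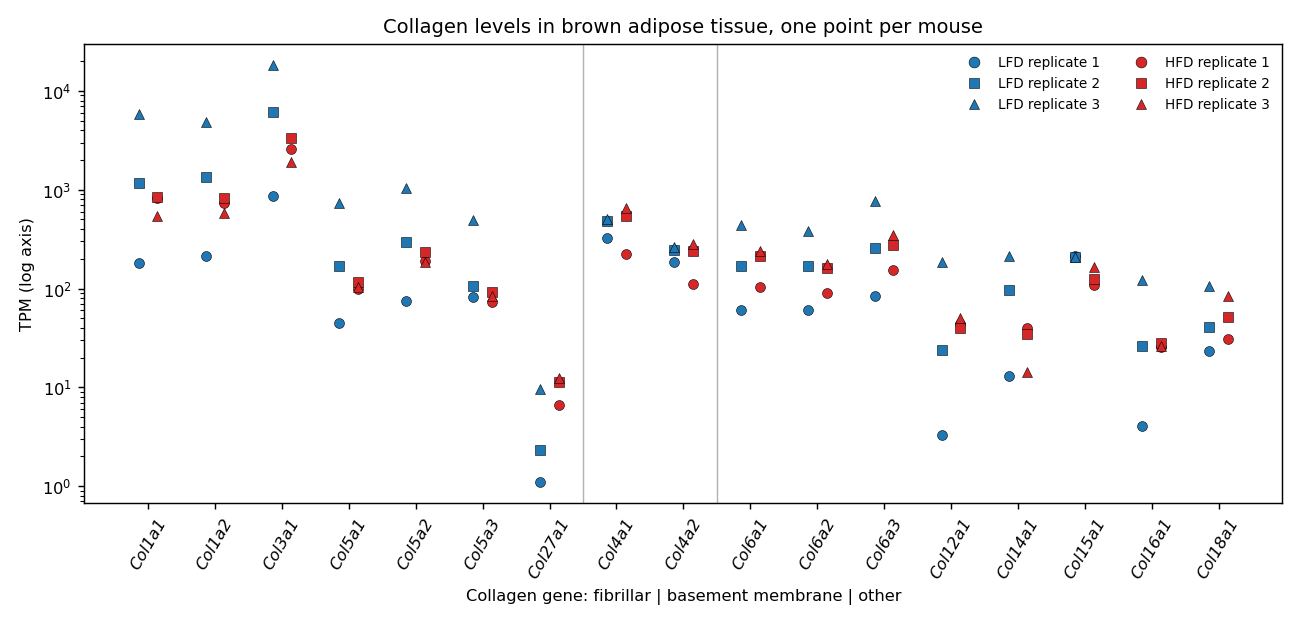
Level in TPM (log axis) of abundant collagens (x axis, by class), with 1 point per mouse. Colour gives the diet and shape the replicate number. LFD replicate 3 (blue triangles) and LFD replicate 1 (blue circles) enclose the HFD-fed mice for *Col1a1*, *Col1a2* and *Col3a1*, while *Col4a1*, *Col4a2* and *Col15a1* show a narrow range in LFD-fed mice.

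Type V collagen is built into type I fibrils and limits their width. *Col5a1* was at 99.8, 115 and 103 TPM in HFD-fed and 45.1, 171 and 733 TPM in LFD-fed mice. For *Col5a2* the values were 191, 236 and 185 TPM in HFD-fed and 74.9, 294 and 1042 TPM in LFD-fed mice. Both spanned the HFD-fed mice with the LFD-fed mice, as the type I and III chains did. *Col5a3*, a minor type V chain, differed in that LFD replicate 1 was not low, with 73.5, 91.4 and 83.9 TPM in HFD-fed and 81.3, 107 and 500 TPM in LFD-fed mice. The log2 fold changes of *Col5a1*, *Col5a2* and *Col5a3* were -1.02 ± 0.77, -0.63 ± 0.74 and -1.04 ± 0.60 (SE), and their adjusted p-values were 0.737, 0.856 and 0.624 (edgeR).

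*Col27a1*, a fibrillar chain known from cartilage, had the largest positive log2 fold change of the family. It was measured at 6.63, 11.4 and 12.5 TPM (840, 1076 and 1255 counts) in HFD-fed mice. In LFD-fed mice it was at 1.09, 2.33 and 9.67 TPM (99, 185 and 653 counts). The groups overlapped in TPM, because LFD replicate 3 exceeded HFD replicate 1. They did not overlap in log2 CPM, with 5.58, 5.69 and 5.75 under HFD against 2.68, 3.15 and 5.0 under LFD. The log2 fold change was 1.70 ± 0.60 (SE), with an unadjusted p of 0.0267 and an adjusted p of 0.399 in edgeR, and an adjusted p of 0.111 in DESeq2.

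*Col11a2*, a chain of the type XI collagen of cartilage fibrils, was scarce, with 36, 71 and 58 counts in HFD-fed and 9, 19 and 26 counts in LFD-fed mice. Every HFD-fed mouse was above every LFD-fed mouse in counts, although in TPM (0.45, 1.03 and 0.93 against 0.19, 0.58 and 0.65) HFD replicate 1 fell within the LFD range. The log2 fold change was 1.51 ± 0.44 (SE) with an unadjusted p of 0.0117 and an adjusted p of 0.311 by edgeR. DESeq2 gave an adjusted p of 0.0481, where 1.1% of all genes were higher at an adjusted p under 0.05. Cartilage and tendon markers summed to 1.40 to 3.76 TPM in HFD-fed and 1.29 to 7.15 TPM in LFD-fed mice, and 5 of their 10 genes had enough counts to be tested, of which 0 had an unadjusted p under 0.05. *Col2a1*, the defining chain of cartilage collagen, had at most 2 counts. The other fibrillar chains tested, *Col11a1* and *Col24a1*, had mean levels below 1 TPM in both diets.

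The abundant basement membrane chains varied little among LFD-fed mice, by 1.58-fold for *Col4a1* and 1.42-fold for *Col4a2*. *Col4a1*, which with *Col4a2* forms the common type IV network, was at 222, 547 and 660 TPM in HFD-fed and 322, 485 and 509 TPM in LFD-fed mice. *Col4a2* was at 112, 242 and 283 TPM in HFD-fed and 187, 248 and 266 TPM in LFD-fed mice. Here HFD replicate 1 was the lowest mouse and HFD replicate 3 the highest, so that the HFD-fed mice enclosed the LFD-fed mice. The log2 fold changes were 0.21 ± 0.39 and 0.06 ± 0.33 (SE), with adjusted p-values of 0.924 and 0.976 by edgeR.

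*Col4a3* and *Col4a4*, which with *Col4a5* form the specialised network known from the kidney filter, were low in BAT. *Col4a3* was measured at 0.49, 0.29 and 0.05 TPM in HFD-fed and 0.89, 2.25 and 0.21 TPM in LFD-fed mice. For *Col4a4* the values were 0.45, 0.34 and 0.12 TPM in HFD-fed and 0.90, 2.86 and 0.38 TPM in LFD-fed mice. Among LFD-fed mice they differed by 10.7-fold and 7.53-fold. In both genes LFD replicate 2 was the highest mouse and HFD replicate 3 the lowest, and the overlap came from LFD replicate 3, which lay below HFD replicate 1. Their log2 fold changes were -1.86 ± 1.05 and -1.80 ± 0.90 (SE), with adjusted p-values of 0.617 and 0.552 by edgeR. *Col4a5* did not follow them, with 1.5, 3.01 and 1.80 TPM in HFD-fed and 0.86, 2.64 and 7.30 TPM in LFD-fed mice and a log2 fold change of -0.35 ± 0.52.

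Same-numbered mice deviated together across genes, and with the replicate number as a blocking factor 4 collagens had an unadjusted p under 0.05. With this block, *Col4a3* had a log2 fold change of -1.84 ± 0.37 (SE) and an adjusted p of 0.108, and *Col4a4* one of -1.69 ± 0.48 and an adjusted p of 0.180. *Col27a1* had 2.07 ± 0.49 and an adjusted p of 0.141, and *Col11a2* 1.54 ± 0.36 and an adjusted p of 0.138 (edgeR). The number of collagens at an unadjusted p under 0.05 was then 2 lower (8.76% of all genes) and 2 higher (8.75%), and 0 were called. The split of signs was 20 negative and 18 positive, with a median log2 fold change of -0.09.

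Type VI collagen is a filament of *Col6a1*, *Col6a2* and 1 further chain, most often *Col6a3*. *Col6a3* was the most abundant of them, at 155, 275 and 345 TPM in HFD-fed and 83.6, 255 and 768 TPM in LFD-fed mice. *Col6a1* was at 105, 215 and 242 TPM in HFD-fed and 60.5, 170 and 440 TPM in LFD-fed mice. *Col6a2* stood at 90.8, 160 and 178 TPM in HFD-fed and 61.1, 169 and 384 TPM in LFD-fed mice. LFD replicate 1 was the lowest and LFD replicate 3 the highest mouse for these 3 chains. Their log2 fold changes were -0.22 ± 0.62, 0.12 ± 0.53 and -0.15 ± 0.47 (SE), with adjusted p-values of 0.953, 0.971 and 0.960 by edgeR. When blocked on replicate number, those of *Col6a3* and *Col6a2* turned to 0.08 and 0.02.

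The chains that can replace *Col6a3* in type VI collagen were scarce. *Col6a5* had the largest negative log2 fold change of the family, -2.67 ± 1.17 (SE), with an adjusted p of 0.494 by edgeR. It had 19, 15 and 2 counts in HFD-fed and 15, 202 and 26 counts in LFD-fed mice, so that the difference lay mostly in LFD replicate 2 and the diets overlapped. Without LFD replicate 2 the log2 fold change was -0.85. *Col6a6* was at 1.76, 0.99 and 0.18 TPM in HFD-fed and 0.72, 7.70 and 5.32 TPM in LFD-fed mice, with a log2 fold change of -1.57 ± 1.00 and an adjusted p of 0.671. *Col6a4* had at most 18 counts.

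Of the FACITs, 6 of 9 were tested and all 6 had negative log2 fold changes, as did 54.4% of all genes, from -1.24 to -0.04 with adjusted p-values of at least 0.701 (edgeR). When blocked on replicate number, 3 of the 6 were negative and 3 positive. *Col14a1*, which regulates fibril growth, was at 39.4, 34.3 and 14.3 TPM in HFD-fed and 13.1, 97.4 and 215 TPM in LFD-fed mice. The difference was -1.24 ± 0.85 (SE) on the log2 scale. LFD replicate 1 lay below every HFD-fed mouse in TPM, but above HFD replicate 3 in log2 CPM (6.38 against 5.95). *Col12a1*, a fibril-associated chain singled out after its values were seen, ranged widely among LFD-fed mice, with 3.27, 23.7 and 187 TPM against 44.2, 39.9 and 50.5 TPM in HFD-fed mice. Its highest LFD-fed mouse exceeded the lowest by 57.2-fold and the HFD-fed mice lay in between.

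*Col15a1*, a multiplexin of the basement membrane zone of muscle, fat and capillaries, varied little in TPM among LFD-fed mice. Its level was 109, 125 and 166 TPM in HFD-fed and 216, 206 and 207 TPM in LFD-fed mice. Every HFD-fed mouse was below every LFD-fed mouse in TPM. In log2 CPM it was 8.0, 7.65 and 7.96 under HFD against 8.75, 8.23 and 7.90 under LFD, so that the diets overlapped and the LFD-fed mice spread more (SD 0.43 against 0.19). The log2 fold change was -0.45 ± 0.31 (SE) and the adjusted p 0.707 by edgeR. *Col18a1*, the precursor of endostatin, was at 30.8, 51.9 and 83.6 TPM in HFD-fed and 23.3, 40.6 and 106 TPM in LFD-fed mice, and was also chosen after its values were seen.

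In the remaining classes the gene with the largest difference is given for each. All other members of these classes had means below 5 TPM except the network chain *Col8a1*, at 5.63, 7.81 and 10.4 TPM in HFD-fed and 1.0, 9.15 and 43.1 TPM in LFD-fed mice, where the LFD-fed mice again enclosed the HFD-fed mice. *Col28a1* was at 0.36, 2.51 and 3.37 TPM in HFD-fed and 0.82, 1.41 and 1.35 TPM in LFD-fed mice. HFD replicate 1 was the lowest of all mice and the other HFD-fed mice the highest, with a log2 fold change of 1.16 ± 0.60 (SE) and an adjusted p of 0.569 by edgeR. The network collagen *Col8a2* was at 1.06, 0.22 and 0.12 TPM in HFD-fed and 0.03, 1.05 and 0.28 TPM in LFD-fed mice. The log2 fold change of 0.94 ± 1.25 turned to -1.06 without HFD replicate 1. *Col17a1*, a transmembrane collagen of epithelial anchoring, was at 0.18, 0.16 and 0.15 TPM in HFD-fed and 0.07, 0.29 and 0.78 TPM in LFD-fed mice, with a log2 fold change of -0.65 ± 0.50. Over the family, 22 members had a mean of at least 1 TPM and 22 a lower one.

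Summed over a class, fibrillar collagens were at 4551, 5467 and 3423 TPM in HFD-fed and 1475, 9175 and 31342 TPM in LFD-fed mice. The highest LFD-fed mouse exceeded the lowest by 21.2-fold, against 1.60-fold among HFD-fed mice. Basement membrane collagens summed to 336, 793 and 945 TPM in HFD-fed and 511, 740 and 783 TPM in LFD-fed mice, which is a 2.81-fold range in HFD-fed and a 1.53-fold range in LFD-fed mice. The other collagens summed to 613, 951 and 1130 TPM in HFD-fed and 471, 1022 and 2495 TPM in LFD-fed mice. The makeup of the collagen transcripts moved with these sums. The *Col1a1*, *Col1a2* and *Col3a1* chains made up 76.0%, 69.5% and 55.2% of summed collagen TPM in HFD-fed mice, and 51.8%, 78.6% and 83.9% under LFD. The share of *Col4a1* and *Col4a2* was 6.07%, 10.9% and 17.2% under HFD against 20.7%, 6.70% and 2.24% under LFD. It was lowest in the mouse with the most fibrillar collagen and highest in the mouse with the least. Fibrillar collagens make up most of the total that the share is taken from. A larger fibrillar sum therefore lowers this share by construction, and the opposite order is not a separate result.

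The spread between mice was compared with that of other genes. In log2 CPM, LFD replicate 3 was the highest mouse for 20 of the 38 tested collagens (21% of all genes) and LFD replicate 1 the lowest for 19 (31.8%). Among the 10 fibrillar chains these counts were 7 and 8. The SD among LFD-fed mice was larger than that among HFD-fed mice for 31 of the 38 (77.2% of all genes). The median SD over the fibrillar chains was 0.36 under HFD and 1.52 under LFD, and over all genes it was 0.32 and 0.55. These are descriptions of 3 mice per diet and were not tested.

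Fibroblast and adipose progenitor markers summed to 1300, 1693 and 1353 TPM in HFD-fed and 3834, 5189 and 4623 TPM in LFD-fed mice. Most of the sum in LFD replicates 1 and 2 was *Gsn* (gelsolin), an actin-binding protein also made by other cells, at 514, 522 and 241 TPM in HFD-fed and 3115, 2989 and 716 TPM in LFD-fed mice. Without *Gsn*, left out after the values were seen, the list summed to 786, 1171 and 1112 TPM in HFD-fed and 719, 2200 and 3907 TPM in LFD-fed mice. This is the order of the fibrillar collagens among LFD-fed mice, and the diets then overlapped. Macrophage markers (521, 2289 and 4002 TPM) and endothelial markers (237, 419 and 491 TPM) shared it, so it is not particular to fibroblasts. The TMM factors by which edgeR scales libraries, not applied to TPM, rose likewise (0.745, 1.07 and 1.20 in LFD replicates 1, 2 and 3). Their part in the order was not tested. In TPM, LFD replicate 1 was the lowest LFD-fed mouse for 12 of the 14 fibroblast genes, and also for 12 of 12 macrophage and 10 of 12 endothelial genes. The share of all genes for which this held in TPM was not counted, so these counts are not read as a trait of these cells. Of the 14 fibroblast genes, 13 had negative log2 fold changes (54.4% of all genes), 6 at an unadjusted p under 0.05 (6.62%), with a list median of -1.25. *Sfrp1*, *Fbln1* and *Pdgfra* had the smallest p-values, with log2 fold changes of -1.61, -1.46 and -1.15. Of the 20 skeletal muscle genes 19 were tested, and the median log2 fold change was -6.15. At an unadjusted p under 0.05, 18 were lower in HFD-fed mice (6.62% of all genes). The muscle markers were highest in LFD replicate 2 and lowest among LFD-fed mice in replicate 3, the mouse with the most collagen. The part of these markers in the collagen levels was not tested.

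**Figure D3:**
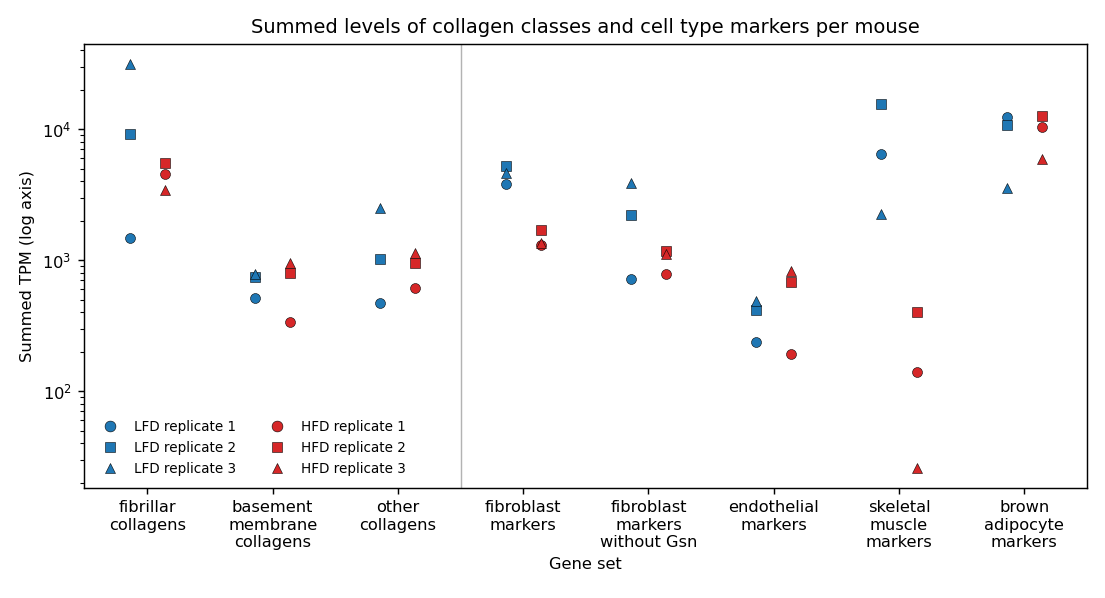
Summed TPM (log axis) of the collagen classes (left) and of cell type marker lists (right), with 1 point per mouse, coloured by diet and shaped by replicate number. Among LFD-fed mice the fibrillar collagens run from 1475 to 31342 TPM and the fibroblast markers without *Gsn* from 719 to 3907 TPM, with the same order of mice. The endothelial markers have that order too.

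Endothelial markers, which mark the capillary lining, summed to 191, 683 and 826 TPM in HFD-fed and 237, 419 and 491 TPM in LFD-fed mice. Lowest in HFD replicate 1 and highest in HFD replicate 3, they had the same order of HFD-fed mice as *Col4a1* and *Col4a2*. Macrophage markers (1686, 2130 and 3659 TPM) and mural markers (167, 331 and 385 TPM) shared it, so it is not particular to endothelial genes. The TMM factors rose likewise (0.815, 1.06 and 1.21 in HFD replicates 1, 2 and 3), and their part was not tested. Endothelial markers also shared the order of LFD-fed mice with *Col4a1* and *Col4a2* in TPM. In log2 CPM *Col4a1* and *Col4a2* ran the other way, from 10.4 and 9.62 in LFD replicate 1 to 10.1 and 9.20 in LFD replicate 3. Of the 12 endothelial genes, 10 had positive log2 fold changes, 3 at an unadjusted p under 0.05 (3.86% of all genes were higher and 6.62% lower at that p), with a median of 0.76. Mural and smooth muscle markers summed to 167 to 385 TPM in HFD-fed and 306 to 631 TPM in LFD-fed mice, with 1 of 12 lower and 2 higher at an unadjusted p under 0.05. The lower gene was *Des* (desmin), at 13, 31 and 18 TPM in HFD-fed and 121, 389 and 86 TPM in LFD-fed mice. Without *Des*, left out after the values were seen, the list summed to 154, 301 and 368 TPM in HFD-fed mice. In LFD-fed mice it then summed to 184, 242 and 361 TPM, and the diets overlapped. Macrophage markers summed to 1686 to 3659 TPM in HFD-fed and 521 to 4002 TPM in LFD-fed mice, with 1 of 12 lower and 3 higher. Among brown adipocyte markers 0 of 14 were lower and 3 higher, and among Schwann cell markers 1 of 10 was lower and 1 higher at that p. Epithelial markers were near absent, at 0.63 to 1.07 TPM in HFD-fed and 1.56 to 7.40 TPM in LFD-fed mice, and 2 of 8 were tested, 1 lower and 1 higher. None of these genes passed the adjusted threshold, nor did any of the 17668 genes tested by edgeR. Whether these cells contribute to the collagen levels was not tested.

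Chains that assemble together were compared as ratios within a mouse, which do not depend on library scaling. The smallest p that an exact permutation test can give with 3 mice per diet is 0.1, and the ratios are therefore described without a test. *Col6a1* over *Col6a2* was 1.15, 1.35 and 1.36 under HFD against 0.991, 1.01 and 1.15 under LFD (means 1.29 ± 0.117 and 1.05 ± 0.0845, SD, n = 3). The HFD-fed mice all exceeded the LFD-fed mice, although HFD replicate 1 and LFD replicate 3 nearly met, and the mean log2 difference of 0.30 was larger than the pooled SD of 0.12. *Col5a1* over *Col5a2* was 0.522, 0.489 and 0.560 under HFD against 0.601, 0.580 and 0.704 under LFD, with a mean log2 difference of -0.26 and a pooled SD of 0.13. Here the HFD-fed mice were all lower, in TPM and in counts.

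*Col4a1* over *Col4a2* was 1.98, 2.26 and 2.33 under HFD against 1.72, 1.96 and 1.91 under LFD, with a mean log2 difference of 0.23. This separation was seen in TPM only, because in counts the diets overlapped and the difference was 0.12. *Col1a1* over *Col1a2*, which assemble in a fixed proportion of chains, was 1.13, 1.03 and 0.935 under HFD against 0.845, 0.864 and 1.21 under LFD, with overlapping diets. The ratio stayed within this range while the level of *Col1a1* among the LFD-fed mice differed by 32.0-fold. *Col6a3* over *Col6a1* overlapped too, with a mean log2 difference of -0.14.

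**Figure D4:**
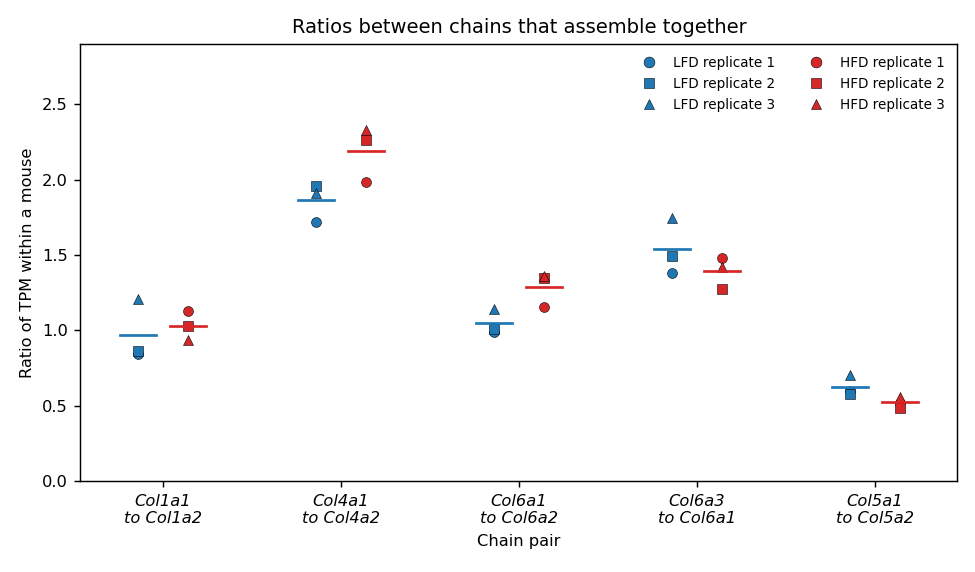
Ratio of TPM between chains of the same collagen type (y axis) for 5 pairs (x axis), with 1 point per mouse, coloured by diet and shaped by replicate number, and a bar at the mean of each diet. The diets separate for *Col4a1* over *Col4a2*, *Col6a1* over *Col6a2* and *Col5a1* over *Col5a2*, and overlap for the other pairs.

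Because LFD replicate 3 held the highest value for most fibrillar chains, the comparison was repeated without it. Of the 39 collagens then tested, 13 had negative and 26 positive log2 fold changes, against 52% and 48% of all genes. The signs of *Col1a1*, *Col1a2*, *Col3a1*, *Col5a1* and *Col5a2* turned, to 0.38, 0.19, 0.08, 0.18 and 0.50, and 9 of the 10 fibrillar chains were positive with a median of 0.41. The chains *Col4a3*, *Col4a4* and *Col6a5* were lower at an unadjusted p under 0.05 (9.55% of all genes), and *Col11a2*, *Col12a1*, *Col18a1* and *Col27a1* were higher (7.7%). *Col27a1* reached a log2 fold change of 2.75 and an adjusted p of 0.0296 (edgeR), and 0 genes of the family passed the adjusted p of 0.01. LFD replicate 3 was picked for its high collagen values, which also held for *Col27a1* (653 counts against 99 and 185). Leaving it out therefore raises these estimates by construction, and neither the turned signs nor this p-value is independent support. The share of all genes at an adjusted p under 0.05 was not counted for this fit. *Col12a1* turned from -0.16 to 2.03.

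Leaving out LFD replicate 1, the mouse with the least fibrillar collagen, moved the estimates the other way, as the removal of low values does. Of 39 collagens tested, 30 had negative and 9 positive log2 fold changes (53.3% and 46.7% of all genes), and the fibrillar median was -1.21. *Col5a1*, *Col6a5* and *Col14a1* were lower (8.27% of all genes) and *Col11a2* was higher (6.01%) at an unadjusted p under 0.05, and the smallest adjusted p was 0.284 (edgeR). *Col27a1* and *Col11a2* kept a positive log2 fold change without any given mouse, from 1.31 to 2.75 and from 1.27 to 1.82. *Col4a3*, *Col4a4*, *Col6a5* and *Col5a3* kept a negative one, from -2.70 to -1.35, -2.59 to -1.05, -3.30 to -0.85 and -1.38 to -0.14. So did *Col6a6* (-2.84 to -1.01), *Col14a1* (-1.90 to -0.45), *Col15a1* (-0.63 to -0.19) and *Col17a1* (-0.96 to -0.43). A positive sign was also kept by *Col28a1* (0.71 to 1.61), *Col18a1* (0.06 to 0.85) and *Col4a1* (0.04 to 0.40).

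**Figure D5:**
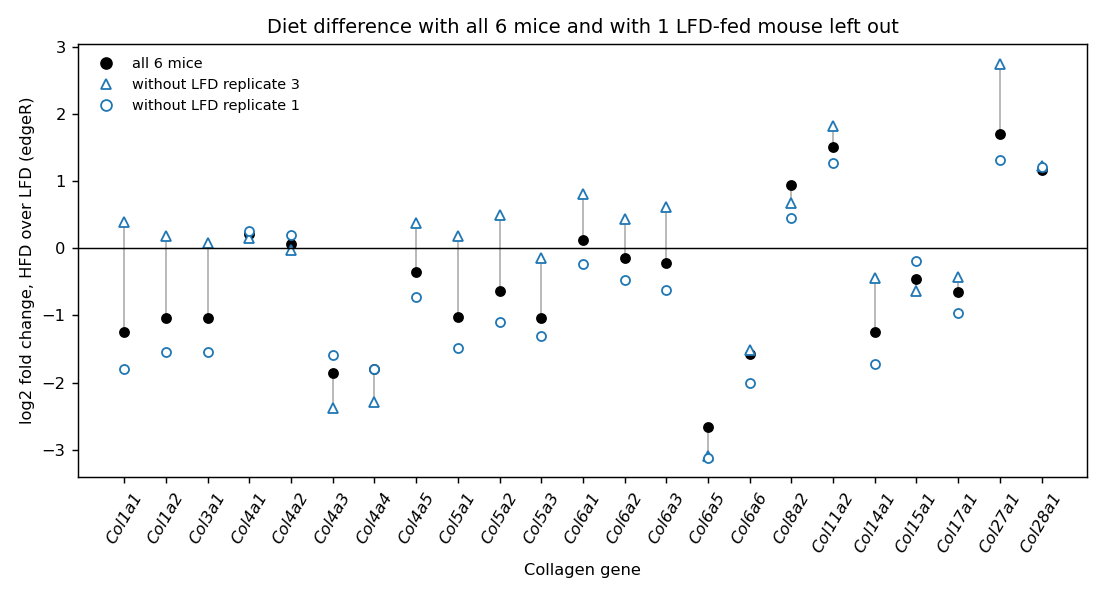
Log2 fold change (y axis, HFD over LFD, edgeR) of named collagens (x axis) with all 6 mice (filled), without LFD replicate 3 (triangles) and without LFD replicate 1 (open circles). Triangles of *Col1a1*, *Col1a2*, *Col3a1*, *Col5a1* and *Col5a2* lie above 0, where their filled points lie between -1.25 and -0.63.

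Genes that act on collagen were examined as lists. In edgeR 0 of their members passed the thresholds, as did 0% of the 17668 genes tested, so this does not set the lists apart. DESeq2 calls are not given for these lists. Over all genes 54.4% had negative log2 fold changes, and at an unadjusted p under 0.05 (edgeR) 6.62% were lower and 3.86% higher. Among 20 genes that fold and modify the chains in the cell, 15 had negative log2 fold changes (median -0.35), and *Mia3*, which loads procollagen for export, was the only member at an unadjusted p under 0.05, with -0.55 ± 0.19 (SE). It was at 53.7, 85.3 and 84.4 TPM in HFD-fed and 76.3, 154 and 196 TPM in LFD-fed mice. *Sec23a*, a coat protein of the export vesicles, and *Plod1*, a lysyl hydroxylase, had -0.39 ± 0.30 and 0.37 ± 0.29. The list summed to 1066 to 2066 TPM in HFD-fed and to 964, 1557 and 4902 TPM in LFD-fed mice, again highest in LFD replicate 3.

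Of the 14 tested genes for procollagen cleavage and cross-linking, 13 had negative log2 fold changes (54.4% of all genes), with a list median of -0.84. At an unadjusted p under 0.05, 2 were lower (6.62% of all genes). *Pcolce2*, an enhancer of procollagen cleavage, was at 5.09, 6.66 and 1.97 TPM in HFD-fed and 18.6, 37.8 and 19.3 TPM in LFD-fed mice. The diets did not overlap, and its log2 fold change was -2.13 ± 0.59 (SE) with an adjusted p of 0.274 by edgeR. *Loxl4*, a cross-linking oxidase, and *Pxdn*, which cross-links type IV collagen, had log2 fold changes of -1.17 ± 0.45 and -0.77 ± 0.36.

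Collagen receptors differed in sign. *Ddr2*, a receptor for fibrillar collagens, was at 28.7, 44.7 and 32.2 TPM in HFD-fed and 34.5, 107 and 137 TPM in LFD-fed mice, with a log2 fold change of -1.18 ± 0.39 (SE) and an adjusted p of 0.363 by edgeR. *Itga1*, the integrin chain that binds type IV collagen, had 0.73 ± 0.30 and *Ddr1* -0.79 ± 0.33. In this list 7 of 10 tested genes were negative (54.4% of all genes), with a list median of -0.50. At an unadjusted p under 0.05, 2 were lower (6.62% of all genes) and 1 higher (3.86%).

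The laminins, nidogens and proteoglycans that share the basement membrane with type IV collagen had 7 of 14 tested genes lower at an unadjusted p under 0.05 (6.62% of all genes) and 1 higher (3.86%), where *Col4a1* and *Col4a2* had log2 fold changes close to 0. The laminin chain *Lamb2* was at 25.6, 39.3 and 33.0 TPM in HFD-fed and 42.3, 83.7 and 85.8 TPM in LFD-fed mice. The difference was -0.96 ± 0.24 (SE) on the log2 scale, with an adjusted p of 0.229 by edgeR. *Lama2*, the laminin chain typical of muscle, had -1.36 ± 0.42. The median of the list was -0.61. Skeletal muscle markers were also lower in HFD-fed mice. Among LFD-fed mice the muscle markers were lowest in replicate 3, whereas this list summed to 517, 1065 and 1512 TPM in replicates 1, 2 and 3. The part of muscle in these levels was not tested.

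Proteoglycans and glycoproteins that bind fibrils had 11 of 13 tested genes negative (54.4% of all genes), with a list median of -0.44. At an unadjusted p under 0.05, 3 were lower (6.62% of all genes). *Dcn* (decorin), which coats type I fibrils, was at 171, 281 and 156 TPM in HFD-fed and 357, 801 and 844 TPM in LFD-fed mice. Unlike type I collagen itself, it separated the diets, with a log2 fold change of -1.39 ± 0.37 (SE) and an adjusted p of 0.266 by edgeR. *Ogn* and *Tnxb* had -1.25 ± 0.46 and -1.56 ± 0.58, and *Kera*, a proteoglycan of the cornea, was listed at 0 in every mouse.

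Among collagenases, gelatinases and their inhibitors, 8 of 10 tested genes were negative (54.4% of all genes), with a list median of -0.54. At an unadjusted p under 0.05, 2 were lower (6.62% of all genes) and 1 higher (3.86%). *Mmp13*, the main collagenase that cuts fibrillar collagen in mice, was higher in every HFD-fed mouse, at 1.63, 4.23 and 3.66 TPM against 0.04, 0.39 and 0.77 TPM in LFD-fed mice. The difference was 3.36 ± 0.69 (SE) on the log2 scale, with an unadjusted p of 0.00201 and an adjusted p of 0.177 by edgeR. *Timp2*, an inhibitor of these enzymes, and the gelatinase *Mmp2* had -1.16 ± 0.34 and -1.35 ± 0.53. *Mmp1a* was listed at 0 in every mouse.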

How the data were processed

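Total RNA of BAT from 3 HFD-fed and 3 LFD-fed mice was sequenced, and the labels gave the diet and replicate number of each sample. Adapters were trimmed by the authors with Trimmomatic 0.36 and reads quantified with RSEM 1.3.0 on Ensembl annotation of GRCm38.p4. The authors deposited an expected count per gene, not normalized, in which a read matching several genes is shared between them. The authors also deposited a TPM value, the count divided by effective length and scaled to a fixed total. The deposited effective length was read only to describe the tables. The deposited tables hold no row for *Col21a1*.

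The expected counts, rounded to integers, were compared between diets by edgeR 4.0.16 in R 4.3.3 (quasi-likelihood test, TMM, edgeR's low-count filter, no covariate), with Benjamini-Hochberg adjustment over all 17668 genes tested. A call needed an adjusted p below 0.01 with a log2 fold change beyond 1.5 in size. The standard error (SE) beside an edgeR estimate was not given by the fit. It was derived as the size of the log2 fold change divided by the square root of the F statistic of the test. Log2 CPM used a prior count of 2 and library sizes multiplied by the TMM factors, which the TPM values do not carry. DESeq2 1.42.0 and limma 3.58.1 on log2(TPM + 1), with a pseudocount of 1, were alternatives, as were other scalings and filters, the replicate block, and each mouse left out. The scripts were tested on simulated data. With 17156991 to 21603487 rounded counts per mouse, genes with few counts carry counting error beside the spread between mice. No libraries were repeats, since the chi-square between same-diet mice, divided by its degrees of freedom, was at least 71.7.

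Deviations from the diet means of same-numbered mice correlated across genes with r of 0.498, 0.229 and 0.522, and those of other pairs with a mean r of -0.20. Deviations from a mean cancel within a diet, so positive values in same-numbered pairs make those of the other pairs negative by construction. The negative mean is therefore not separate support for the pairing. The labels do not say what a number marks, and genes are not independent replicates.

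Named collagens were the 10 with the highest mean TPM, those at an unadjusted p under 0.05, the chains of types I, III, IV, V and VI, and the gene with the largest difference in each other class. From each other list the 3 genes with the smallest p were named, of which 1 gene is not reported here. The members and lists were chosen with earlier results of these data known. Positions come from GENCODE M21 and promoters from RefSeq.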

Additional observations from a re-analysis of the deposited data

How the results depend on the processing

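No collagen was called under any alternative, nor, with all 6 mice, at an adjusted p under 0.05 without a limit on the fold change in edgeR. The counts at an unadjusted p under 0.05 were small and moved. Collagens lower in HFD-fed mice numbered 2 with DESeq2, 1 with library size only, 2 without a low-count filter, and 0 to 3 when a mouse was left out. Collagens higher numbered 1 with library size only, 1 with at least 10 counts in every mouse, 0 with limma on log2(TPM + 1), and 0 to 4 with a mouse left out. Collagens with all HFD-fed mice below numbered 1 on log2(TPM + 1) and 0 to 8 with a mouse left out. Those with all HFD-fed mice above numbered 1 with at least 10 counts in every mouse, 0 on log2(TPM + 1) and 2 to 9 with a mouse left out. Fewer values have to separate when a mouse is left out, and the share of all genes that do was not counted. At an unadjusted p under 0.05 that share was counted only without LFD replicate 3, without LFD replicate 1 and with the replicate block. These counts therefore describe the settings and are not read as results about collagens. The log2(TPM + 1) scale moved the median of all genes by -0.13. The fibrillar median ran from -1.22 to 0.41 with a mouse left out, and the log2 difference of the *Col4a1* to *Col4a2* ratio was 0.12 in counts.

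Blocking on the replicate number (the replicate block), to take up the pairing of same-numbered mice, left 2 collagens lower at an unadjusted p under 0.05, and the log2 fold changes of *Col6a2*, *Col6a3* and *Col12a1* turned to 0.022, 0.079 and 1.0. The block ended or made no call. On log2(TPM + 1), *Col4a2* turned to -0.23 and *Col12a1* to 0.75.

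Leaving out a mouse gave log2 fold changes of both signs for *Col1a1* (-1.79 to 0.38), *Col1a2* (-1.55 to 0.19), *Col3a1* (-1.54 to 0.077), *Col4a2* (-0.052 to 0.21), *Col4a5* (-0.72 to 0.37), *Col5a1* (-1.49 to 0.18), *Col5a2* (-1.10 to 0.50), *Col6a1* (-0.24 to 0.80), *Col6a2* (-0.47 to 0.43), *Col6a3* (-0.61 to 0.62), *Col8a2* (-1.06 to 2.40) and *Col12a1* (-0.73 to 2.03). Among the 25 collagens followed, 10 changed sign without LFD replicate 3, and 1 without each of the other mice. The cause was not tested. Each diet had 3 mice, and summed fibrillar levels differed by 21.2-fold among LFD-fed mice. What size of diet difference could be detected was not tested, and many chains below 1 TPM rest on few counts.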
